A study of Homo sapiens with 26 samples.

Results

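Unlabeled HEK293T cells stably expressing the Lyn11 construct were compared with unlabeled HEK293T cells stably expressing the Lck construct, using the control libraries of both lines and no labeled library. The HEK293T line descends from human embryonic kidney cells and expresses SV40 large T antigen. Both constructs fuse APEX2, an engineered peroxidase that tags nearby molecules with biotin, to a sequence that holds it on the inner face of the plasma membrane. The libraries were chosen by their titles, which gave 4 Lyn11 controls and 3 Lck controls of 26 libraries in all, which the design text describes as biological replicates. Of 25745 genes, 19966 had a log2 FPKM above 0 in at least 3 of these 7 libraries. Log2 FPKM is the log2 of read fragments over exon length and a scaled library size. A gene can pass that filter through the libraries of 1 line alone. The question put to these data was how far the lines differed before labeling.

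All 7 libraries come from cells that carry an APEX2 fusion, grown in the same listed medium. The labels list biotin-phenol, then hydrogen peroxide and a quench, TRIzol extraction and streptavidin beads for control and labeled samples alike, and the sources used here do not give the step that the unlabeled controls lacked. Clones and preparation days were not given either, so construct, clone and preparation cannot be told apart. Strandedness was also not given, so reads of genes that overlap on opposite strands cannot be told apart, and overlaps are stated beside the genes named. In bulk libraries, fewer copies of an RNA per cell and a smaller recovery of that RNA cannot be told apart either.

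Lyn11 and Lck sequences come from the start of the Src-family kinases LYN and LCK, where attached fatty acids anchor the proteins to the inner leaflet. RNA that reaches streptavidin beads without labeling is the background against which a labeled library is read, and its makeup follows the RNA of the cells and what binds beads. The mitochondrial genome, which several results below concern, is transcribed from both strands as long precursors that are cut at the tRNAs lying between the genes. Its mRNAs all encode subunits of the respiratory chain and ATP synthase. 7SL RNA, the other main subject, is the scaffold of the signal recognition particle, which brings ribosomes making secreted and membrane proteins to the endoplasmic reticulum.

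Recovered depth was 22.66 to 34.82 M reads (1e6) in the Lyn11 controls and 19.82 to 21.81 M in the Lck controls, with 76 to 239 genes at 0 reads. The library size behind the log2 values was scaled. Over these reads, relative to the series average, it was 0.873, 0.967, 0.952 and 1.009 in the Lyn11 controls. In the Lck controls it was 1.02, 1.031 and 1.038. A smaller size raises every log2 value of a library, so log2 differences carry this scaling and shares of reads do not. Lyn11 control 1 was the deepest and had the largest spread around its group mean (residual SD 0.483 log2 units, against 0.227 to 0.403 in the others). Lyn11 control 4 correlated best with an Lck library, control 1 (Pearson 0.966 across genes, which are not independent replicates). LYN, whose first residues the Lyn11 sequence copies, had a log2 FPKM of 3.44, 2.92, 3.24 and 3.07 in the Lyn11 controls and 2.94, 2.92 and 2.99 in the Lck controls. These values overlapped, with a difference of 0.22 ± 0.15 (95% interval -0.11 to 0.55, limma adjusted p = 0.571). So short a tag cannot check the labels, and LCK was not among the genes analysed here. LYN lies on chromosome 8 and has SNORA1B and RN7SL798P on its opposite strand.

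The line difference was small for most genes, and none passed the test. Differences are Lyn11 minus Lck in log2 FPKM, with the standard error of the fit after ±. With limma's test and Benjamini-Hochberg adjustment, 0 of 19966 genes (0%) had an adjusted p under 0.05, the lowest being 0.511, and limma voom on the recovered reads also called 0 (2078 passed an unadjusted 0.05). On the log2 values, the number with an unadjusted p under 0.05 was 1909 genes (9.56%), 1052 with higher values in Lyn11 (5.27%) and 857 with lower values (4.29%). The Lyn11 and Lck libraries did not overlap in 2266 genes (11.3%), 1383 of them with Lyn11 above Lck (6.93%) and 883 with Lyn11 below (4.42%). The median difference was 0.03, 86.4% of genes differed by less than 0.5, and the 95% interval lay within -1 to 1, a change of less than 2-fold, in 15245 genes (76.4%). Of 326 genes with a difference of at least 1, 295 had lower values in Lyn11, and only 20 were protein-coding genes of the nucleus. These 326 were mostly low, with a median mean log2 FPKM of 0.81 against 2.24 for all genes tested, and 153 had separate groups.

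A design of 4 against 3 libraries cannot go below a two-sided exact permutation p of 0.0571 for a single value, and the fit left 5 residual degrees of freedom. The unadjusted count was 4269 without Lyn11 control 4, 1083 without Lyn11 control 3, and 1173, 1173 and 846 without Lck controls 1, 2 and 3, and the count of genes with separate groups was 6103 without Lyn11 control 4 and 3917 and 3700 without Lck controls 1 and 2.

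Mitochondrially encoded RNAs had lower values in the Lyn11 controls throughout. All 26 measured genes, 13 mRNAs and 13 tRNAs, had a negative difference, with a median of -0.95, -0.78 over the mRNAs and -1.11 over the tRNAs, where the median over all genes was 0.03. For 13 of the 26 (50%), 5 mRNAs and 8 tRNAs, every Lyn11 control lay below every Lck control, against 4.42% of all genes. For 19 of the 26 the unadjusted p was under 0.05, against 4.29% of all genes, and none passed the adjusted test (adjusted p = 0.511 to 0.852). The tRNA genes with the 3 lowest unadjusted p-values of the mitochondrial tRNAs are shown here as their sense strand (GENCODE 29 on hg38). Capitals mark the anticodon, at positions 31 to 33 from the 5′ end. The search took a triplet in a loop closed by a paired stem that decodes the amino acid of the gene's name. Each stem found had 5 pairs.
MT-TH: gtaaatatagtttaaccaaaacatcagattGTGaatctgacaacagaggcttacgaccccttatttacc
MT-TG: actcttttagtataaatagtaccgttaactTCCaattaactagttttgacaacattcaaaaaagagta
MT-TR: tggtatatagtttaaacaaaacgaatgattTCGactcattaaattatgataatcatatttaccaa

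MT-TH (chromosome M, 12138 to 12206, plus strand), the histidine tRNA, had a log2 FPKM of 5.49, 5.61, 5.23 and 5.08 in the Lyn11 controls and 7.06, 6.56 and 7.51 in the Lck controls. Every Lyn11 value lay below every Lck value, with 54 to 96 reads against 150 to 267. Its difference of -1.69 ± 0.23 had the lowest unadjusted p of all genes tested, and an adjusted p of 0.511. MT-TG (9991 to 10058), the glycine tRNA, stood at 4.85, 4.93, 4.71 and 5.25 in Lyn11 and 6.05, 6.19 and 6.82 in Lck. MT-TR (10405 to 10469), the arginine tRNA, stood at 5.39, 5.95, 5.46 and 5.47 against 6.73, 6.69 and 7.42. In both tRNAs the lines were well apart, with differences of -1.42 ± 0.21 and -1.38 ± 0.21. MT-TD, the aspartate tRNA, had the largest difference of the mitochondrial genes at -2.14 ± 0.37, from only 3 to 14 reads in Lyn11 and 22 to 29 in Lck.

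Of the 7 mRNAs for subunits of complex I (NADH dehydrogenase), 5 had differences below -1, and MT-ND1 and MT-ND2 had -0.74 and -0.70, with MT-ATP8 of ATP synthase at -0.90. MT-ND5 (12337 to 14148) had a log2 FPKM of 8.84, 9.03, 8.66 and 8.84 in the Lyn11 controls and 10.12, 9.53 and 10.36 in the Lck controls. MT-ND4 (10760 to 12137) stood at 8.53, 8.92, 8.59 and 8.64 against 9.93, 9.23 and 9.96. Neither gene's groups overlapped, and each value rested on many reads, 18208 to 26039 against 31180 to 50783 for MT-ND5. The differences were -1.16 ± 0.21 and -1.03 ± 0.21. MT-ND3 had -1.51 ± 0.44 with overlapping groups, since Lyn11 control 4 at 6.90 lay above Lck control 2 at 6.53. MT-CO1, which encodes the catalytic subunit of cytochrome c oxidase and was the most abundant mitochondrial mRNA, was spread over the same range in both lines, with 12.10, 12.51, 12.57 and 12.84 in Lyn11 and 12.71, 12.47 and 12.77 in Lck (-0.14 ± 0.27). MT-CYB and MT-CO3, of complexes III and IV, stood at -0.59 ± 0.24 and -0.59 ± 0.35, also with overlapping groups.

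Differences varied along the mitochondrial genome in the controls. The 9 genes from MT-TG to MT-ND5 (chromosome M, 9991 to 14148, all on the plus strand), a run chosen after its values were seen, had a median of -1.38, and the groups did not overlap in 8 of them. The other 17 genes, among them MT-TD and MT-TK (-1.74), had a median of -0.74, with separate groups in 5. In the labeled libraries the run did not stand out, with a median of -1.16 in its 9 genes and -1.20 in the other 17. Lck control 2 was the lowest Lck library for 21 of 26 genes, and Lyn11 control 4 set the overlap of MT-ND3, MT-CO3, MT-TN and MT-TC.

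**Figure D1:**
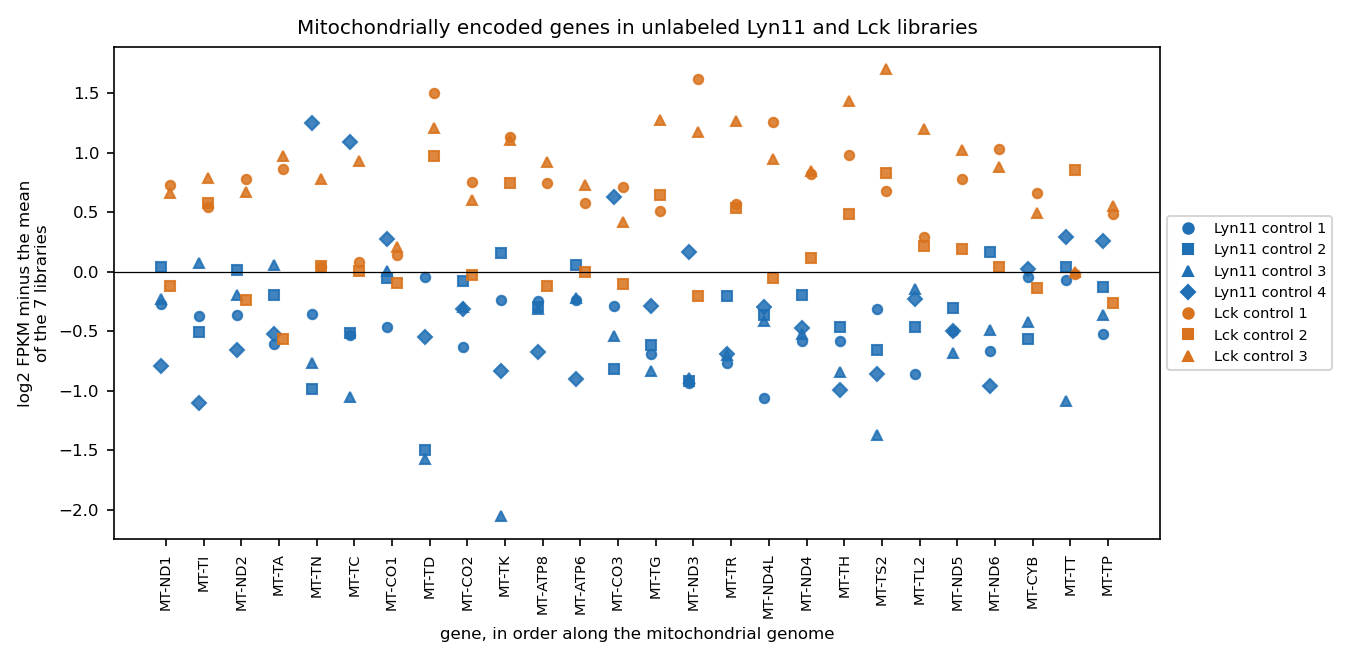
Log2 FPKM of each of the 26 mitochondrially encoded genes measured, less its mean over the 7 libraries, in the order of the mitochondrial genome, in each Lyn11 control (blue) and Lck control (orange). The orange points lie above all blue points for 13 of 26 genes, among them 8 of the 9 from MT-TG to MT-ND5, while MT-CO1 overlaps.

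Genes outside the mitochondrial genome did not share the pattern by function. The 63 measured nuclear genes for oxidative phosphorylation had a median of 0.24 in the other direction, with 48 higher and 15 lower values in Lyn11. At an unadjusted p under 0.05 there were 14 and 1 (5.27% and 4.29% of all genes). Of 12143 nuclear protein-coding genes, 938 were higher and 75 lower at that level. ATP5MC3, the c subunit of ATP synthase, stood at 5.32, 4.52, 4.64 and 4.28 in Lyn11 and 4.08, 3.99 and 4.0 in Lck (0.67 ± 0.22). CYC1, cytochrome c1 of complex III, stood at 6.98, 6.27, 6.37 and 6.04 against 5.67, 5.94 and 5.84 (0.60 ± 0.21). In both genes every Lyn11 value was the higher, with Lyn11 control 1 on top and control 4 nearest to Lck. Pseudogenes of mitochondrial sequence on nuclear chromosomes, which can share reads with the mitochondrial genes, had a median of -0.65 over 33 genes, 32 of them lower in Lyn11. Nuclear protein-coding genes of the same GC content as the mitochondrial mRNAs (39.6% to 47.7%) had a median of 0.07 over 3963 genes.

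7SL RNA had lower values in the Lyn11 controls. It is encoded by near-identical genes that can exchange reads, so the split between them is uncertain. RN7SL2 (chromosome 14, 49862550 to 49862849, minus strand) had the most reads of the noncoding genes when the 7 libraries were summed, 60466 to 169237 per library, though MALAT1 had more in Lyn11 controls 2, 3 and 4. Its log2 FPKM was 13.72, 13.31, 13.25 and 13.06 in the Lyn11 controls and 14.42, 14.57 and 14.13 in the Lck controls. All Lck libraries lay above all Lyn11 libraries, with a difference of -1.04 ± 0.33 (adjusted p = 0.511). RN7SL3 stood at 11.17, 10.36, 10.31 and 9.68 against 10.95, 11.21 and 10.89. There Lyn11 control 1 reached into the Lck range, and the difference was -0.64 ± 0.32. RN7SL4P, a pseudogene on chromosome 3, stood at 7.23, 6.35, 5.86 and 5.76 against 8.03, 8.28 and 7.51, again with separate groups (-1.64 ± 0.35), and RN7SL5P at -1.39 ± 0.44, while ANKRD28 and PTPRD, the genes they lie opposite, stood at -0.03 and 0.11. The 141 annotated copies, most with few reads, had a median of -0.20. RN7SL2 overlaps AL627171.2 on its own strand.

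As a share of all reads, 7SL copies took 0.444%, 0.359%, 0.336% and 0.308% in the Lyn11 controls and 0.782%, 0.884% and 0.662% in the Lck controls. The means of 0.362% and 0.776% differ 2.14-fold without overlap, at the smallest p that 4 against 3 libraries allow (two-sided exact permutation p = 0.0571, adjusted p = 0.0816 over 10 RNA families). Mitochondrial genes took 0.932%, 1.28%, 1.25% and 1.61% against 1.93%, 1.44% and 2.0%. These overlapped, since Lyn11 control 4 lay above Lck control 2, and the ratio of means was 0.707 (exact permutation p = 0.114, adjusted p = 0.127). Most mitochondrial reads fell on MT-CO1, 215597 of 383151 in Lck control 1. MT-CO1 itself differed little between the lines (-0.14 in log2 FPKM), so the ratio of shares also reflects the other mitochondrial genes. The mitochondrial tRNAs alone did not overlap, with 0.00226% to 0.00448% against 0.00469% to 0.00804%. Nuclear protein-coding genes took 94.2%, 92.7%, 93.3% and 92.2% in Lyn11 and 90.7%, 91.1% and 90.7% in Lck, also without overlap. Shares add up to a whole, so a higher share of one class lowers the others.

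The other unlabeled lines place these shares. In the CD28 and PDGFR controls, whose constructs face outwards, 7SL copies took a mean of 0.657% ± 0.162 and 0.928% ± 0.199 (SD, n = 3 each), so the Lyn11 mean of 0.362% ± 0.0587 (SD, n = 4) was the lowest of the 4 lines and the Lck mean lay between the others. For mitochondrial genes the CD28 and PDGFR means were 1.19% ± 0.311 and 1.14% ± 0.10 (SD), near the Lyn11 mean of 1.27% ± 0.277, and the Lck mean of 1.79% ± 0.310 was the highest. The mitochondrial tRNAs alone had another order. Their mean share was lowest in Lyn11 at 0.00297%, then 0.00373% in CD28, 0.00611% in Lck and 0.00728% in PDGFR. The outside controls were sequenced less deeply, at 11.34 to 16.26 M reads, and no test was made of these differences.

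**Figure D2:**
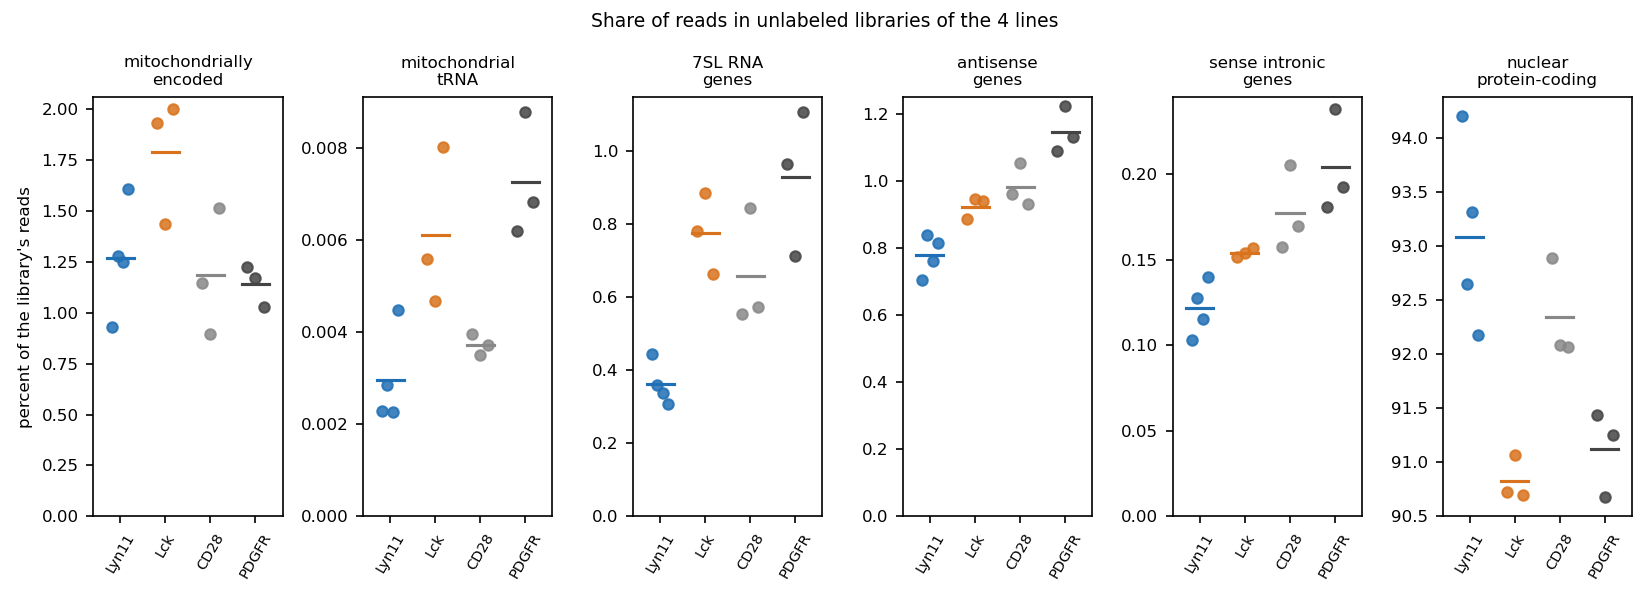
Percent of each unlabeled library's reads that fell on 6 RNA families, 1 point per library with a bar at the mean, for the Lyn11, Lck, CD28 and PDGFR lines. Lyn11 (blue) and Lck (orange) overlap in the mitochondrial share and not in the others, and the axis of the nuclear protein-coding panel does not start at 0.

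Other abundant noncoding RNAs were mixed. NEAT1, the scaffold of nuclear paraspeckles, stood at 4.43, 6.15, 5.09 and 5.29 in the Lyn11 controls and 6.06, 6.43 and 6.16 in the Lck controls. Lyn11 control 2 reached the Lck range, and the difference was -0.98 ± 0.34. MALAT1, a nuclear speckle RNA, stood at 7.64, 8.92, 8.55 and 9.01 against 9.28, 8.92 and 8.97, an overlap with a difference of -0.53 ± 0.32 in which Lyn11 control 1 lay lowest. Of 12 measured RNAs in a list of nuclear-retained long noncoding RNAs, 10 had lower values in Lyn11 (median -0.23). KCNQ1OT1, NORAD, GAS5 and TUG1 stood at -0.31, -0.19, -0.06 and 0.04, and RPS2P5 and LRRC75A-AS1 at 0.42 and 0.25, all with overlapping groups. The signs for GAS5 and TUG1 were not stable, with 0.05 for GAS5 without Lyn11 control 1 and -0.15 for TUG1 with quantile normalization.

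Protein-coding and noncoding genes leaned opposite ways. The 12143 nuclear protein-coding genes had a median of 0.11, with 8536 (70.3%) higher in Lyn11. They were 60.8% of the genes tested, 89.2% of those higher at an unadjusted p under 0.05 and 8.8% of those lower. Median differences were -0.23 for 1994 processed pseudogenes, -0.20 for 1954 antisense RNAs, -0.16 for 942 lincRNAs, -0.27 for 471 sense intronic RNAs, -0.28 for 293 snRNAs, and -0.41 for 48 copies of 7SK, the RNA that holds the elongation factor P-TEFb inactive. With values corrected for GC content and length, the coding median was 0.03. All these medians carry the library scaling of the log2 values, which was lower in every Lyn11 control than in the Lck controls.

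The nuclear protein-coding genes named next were chosen after their values were seen, as the 12 largest differences in each direction among genes with an unadjusted p under 0.05, separate groups and a mean log2 FPKM of at least 1. All of them had an adjusted p of 0.511. PPP1R35 (chromosome 7, 100435282 to 100436565), a centriole protein, had the largest of the positive differences. It stood at 4.14, 3.42, 3.30 and 3.24 in the Lyn11 controls and 2.32, 2.49 and 2.55 in the Lck controls (1.07 ± 0.22), with 264 to 657 against 123 to 154 reads, and it has the noncoding genes AC092849.1 and AC092849.2 on its opposite strand. Lyn11 libraries lay above Lck throughout, with control 1 well above the others.

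HLA-C and IFI6, both induced by interferon, were in the same set. HLA-C, a class I antigen-presenting molecule, stood at 5.99, 5.64, 5.60 and 4.94 against 4.87, 4.68 and 4.58 (0.83 ± 0.23). IFI6, a mitochondrial and endoplasmic reticulum protein, stood at 3.81, 3.02, 2.75 and 2.81 against 2.27, 2.29 and 2.24 (0.83 ± 0.25). In HLA-C the gap between the lines rests on a narrow margin, Lyn11 control 4 lying just above Lck control 1, while in IFI6 all Lck values lie close together. The 14 measured interferon-stimulated genes had a median of 0.09, with 9 higher and 5 lower values, 4 of the higher ones at an unadjusted p under 0.05. HLA-C shares sequence with HLA-B, and IFI6 has AL445490.1 on its opposite strand.

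The other genes of the set with a known role in signaling or transport were CXCR4, RGS19, ARF5 and SLC52A2. CXCR4, the receptor of the chemokine CXCL12, stood at 2.34, 1.19, 1.39 and 1.34 against 0.44, 1.05 and 0.78 (0.81 ± 0.30). RGS19, which speeds the turnover of GTP on G protein alpha subunits, stood at 3.60, 3.09, 3.09 and 2.51 against 2.06, 2.44 and 2.25 (0.82 ± 0.24). ARF5, a small GTPase of Golgi traffic, stood at 6.32, 5.87, 5.74 and 5.06 against 4.91, 4.94 and 4.94 (0.81 ± 0.25). In each of them Lyn11 control 1 was the highest library. SLC52A2, a riboflavin transporter, had 0.81 ± 0.31, FJX1 0.94 ± 0.30, SAC3D1 0.84 ± 0.30, and PANK4, LIPT2 and TUSC1 0.82 to 0.89. Over the 12 genes Lyn11 control 1 was the highest library in 11 and control 4 the Lyn11 library nearest to Lck in 10, and their median GC content was 61.5%, against 48.5% for all nuclear protein-coding genes tested. ARF5 lies opposite GCC1, SAC3D1 opposite NAALADL1, LIPT2 opposite AP001372.2 and SLC52A2 opposite FBXL6 and TMEM249.

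Genes with lower values in the Lyn11 controls were fewer, 31 meeting the same criteria against 605 in the other direction, and had smaller differences. CXCL17, a mucosal chemokine, stood at 1.75, 2.88, 2.53 and 2.06 in Lyn11 and 2.97, 3.67 and 3.46 in Lck (-1.06 ± 0.28). LIPE-AS1, which lies opposite it, stood at -0.37. RPS27, a protein of the small ribosomal subunit, stood at 5.29, 4.26, 4.49 and 4.98 against 5.82, 5.32 and 5.39 (-0.76 ± 0.25), and RPS27 was separated by only 0.03 between Lyn11 control 1 and Lck control 2. MAK, a kinase of cilia, stood at 1.98, 2.14, 1.93 and 2.44 against 2.81, 2.64 and 2.78 (-0.62 ± 0.16), and overlaps TMEM14B on the opposite strand. The histone gene HIST1H2BG had -0.65 ± 0.18. SGK494, TMPRSS5, DCDC2B, SPDYE5, TMEM91, FHAD1, SPDYE3 and CEMIP stood at -0.58 to -0.47. In all, 9 of these 12 genes overlap a gene on the opposite strand.

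**Figure D3:**
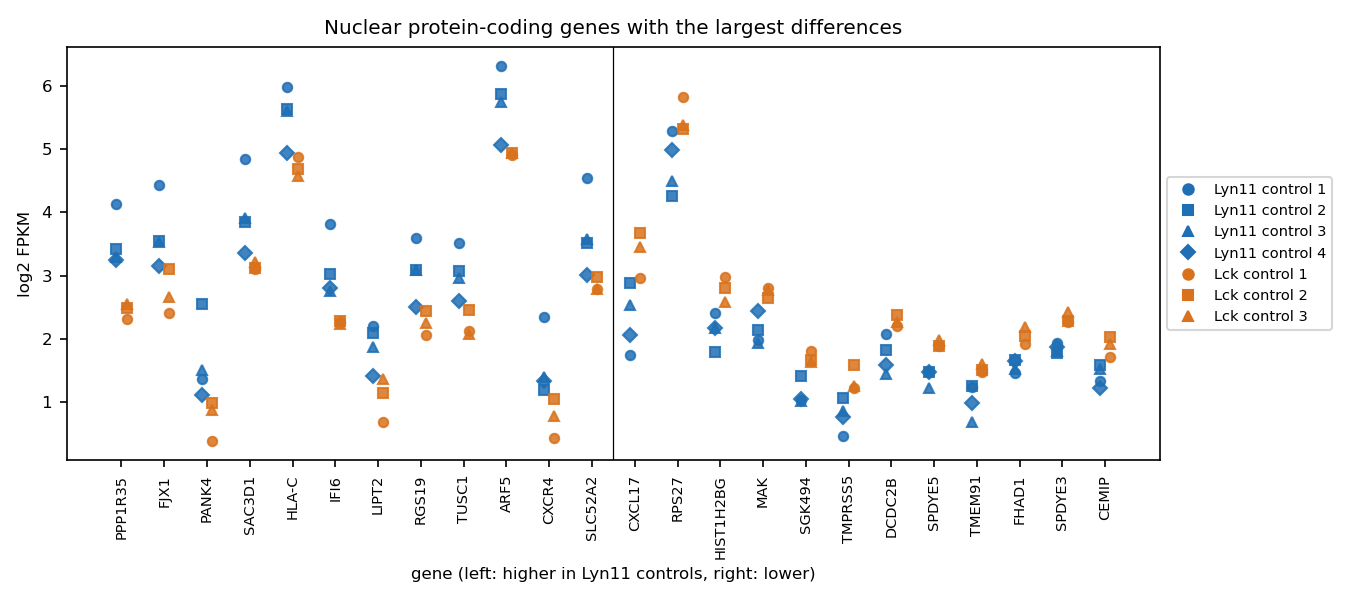
Log2 FPKM of the 12 nuclear protein-coding genes with the largest differences in each direction, in each Lyn11 control (blue) and Lck control (orange), with a symbol for each replicate. Lyn11 control 1 (blue circles) is the highest library for 11 of the 12 genes on the left, and the genes on the right have smaller gaps.

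Small noncoding genes of the nucleus also had large negative differences. Mitochondrial tRNAs aside, the 12 lowest noncoding genes by the same criteria were RNU6-430P at -2.11 ± 0.58, RNY3P13, RNU6-808P, SCARNA14, RN7SL4P, RNA5SP327, RNU4-60P, MIR548O, MIR7974, SNORA49, RN7SL5P and RN7SKP239 at -1.93 to -1.39. They are copies or pseudogenes of U6, Y, U4, 7SL, 5S and 7SK RNA, a guide RNA of Cajal bodies, a guide RNA of pseudouridylation and microRNA precursors. RNU6-430P had 4, 5, 2 and 0 reads in the Lyn11 controls and 5, 18 and 16 in the Lck controls. MIR7974 had 1, 2, 3 and 2 reads against 5, 8 and 7. Of the 12, 10 had only 0 to 55 reads in any library, and the exceptions were RN7SL4P, with 376 to 2127, and RN7SL5P, with 305 to 2085. All 12 lie within another gene, 5 of them on its opposite strand, and those 12 host genes had differences of -0.37 to 0.15. The small genes were chosen as the lowest, so less extreme values in their hosts are built into the choice.

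In the other direction, the noncoding genes included 3 pseudogenes of ribosomal or metabolic genes with many reads. DHFRP1, a dihydrofolate reductase pseudogene opposite PSMA8, stood at 6.46, 6.27, 6.69 and 6.12 in Lyn11 and 6.01, 5.82 and 4.30 in Lck (1.01 ± 0.38), with Lck control 3 far below the other Lck libraries. RPL13P12 stood at 5.84, 5.14, 5.02 and 4.89 against 4.21, 4.75 and 4.47 (0.75 ± 0.24). RPL15P3 stood at 6.07, 6.06, 5.94 and 5.63 against 5.41, 5.38 and 5.27 (0.57 ± 0.13). Both ribosomal protein pseudogenes had all Lyn11 values above all Lck values, and both can take reads from their parent genes. EXOC3-AS1, antisense to EXOC3, had 0.60 ± 0.18, and MIR4466, MIR545, RN7SL851P, FLJ20021, UTAT33, RNU2-34P, UBE2MP1 and MIR621 stood at 0.59 to 0.96.

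Gene lists for pathways, complexes and tissue programs mostly sat at or above the coding median. Of 36 lists with measured members, 32 had a median above 0, and 24 lay above the 0.11 of all nuclear protein-coding genes. No member of any list passed the adjusted test, so the members named were also chosen after their values were seen. For the counts at an unadjusted p under 0.05 given next, the share over all genes was 5.27% higher and 4.29% lower. Most lists hold nuclear protein-coding genes, and of all 12143 of these 938 were higher and 75 lower at that level.

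Genes of DNA replication had higher values in the Lyn11 controls. All 20 S phase genes had a positive difference (median 0.29), 6 of them at an unadjusted p under 0.05. PCNA, the sliding clamp of DNA polymerase, stood at 7.68, 7.47, 7.64 and 7.36 in Lyn11 and 7.12, 7.12 and 7.05 in Lck (0.44 ± 0.12). GINS2, of the replicative helicase, stood at 5.26, 4.86, 4.89 and 4.48 against 4.20, 4.41 and 4.34 (0.55 ± 0.18), and MCM4 had 0.31 ± 0.11. The lines did not overlap in PCNA, GINS2 or MCM4. The 25 mitotic genes had a median of 0.04, with 15 higher and 10 lower, and the replication-dependent histones, made in S phase, had -0.13 over 38 genes, 4 of them lower at an unadjusted p under 0.05 and none higher. GINS2 lies opposite GSE1.

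Sterol and metabolic genes showed the same lean. Cholesterol synthesis and uptake had a median of 0.28 over 29 genes, 27 of them higher in Lyn11 and 7 at an unadjusted p under 0.05. DHCR7, which makes cholesterol from its last precursor, stood at 6.15, 5.34, 5.36 and 5.00 in Lyn11 and 4.71, 4.98 and 4.81 in Lck (0.63 ± 0.25). SQLE, squalene epoxidase, stood at 5.25, 5.01, 5.15 and 5.22 against 4.95, 4.79 and 4.77 (0.32 ± 0.11), the groups again apart. HMGCS1, the synthase before HMG-CoA reductase, stood at 0.07 ± 0.10. Glycolysis and hypoxia genes had a median of 0.21 over 27 genes, with PGAM1, a phosphoglycerate mutase, at 0.63 ± 0.24 and LDHA, lactate dehydrogenase, at 0.32 ± 0.12. DHCR7 lies opposite AP002387.1.

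In the stress and secretory lists, the endoplasmic reticulum chaperones had a median of 0.23 over 20 genes, 6 at an unadjusted p under 0.05. CALR, a calcium-binding chaperone, stood at 8.36, 7.98, 8.12 and 7.72 in Lyn11 and 7.51, 7.64 and 7.57 in Lck (0.47 ± 0.16). XBP1, a transcription factor of the unfolded protein response, stood at 6.11, 6.02, 6.14 and 5.88 against 5.68, 5.71 and 5.74 (0.33 ± 0.10). Both had every Lyn11 library above every Lck library, while HSPA5, the main chaperone of that compartment, had 0.17 ± 0.11. Integrated stress response genes had a median of 0.18 over 28 genes, with ATF4, its central transcription factor, at 0.41 ± 0.16 and PSPH, the last enzyme of serine synthesis, at 0.45 ± 0.13. NRF2 targets had a median of 0.29 over 18 genes, with TXNRD1, a thioredoxin reductase, at 0.32 ± 0.09. CALR lies opposite AC092069.1 and TXNRD1 opposite AC089983.1.

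Developmental and signaling lists also held positive differences. TGF-beta and BMP targets had a median of 0.34 over 12 genes, 5 at an unadjusted p under 0.05, among them SMAD7, an inhibitor of the pathway, at 4.29, 3.51, 3.48 and 3.05 in Lyn11 and 2.88, 3.02 and 3.02 in Lck (0.61 ± 0.26). That gap between the lines was 0.03 at its narrowest, between Lyn11 control 4 and the Lck controls. HOX genes had a median of 0.22 over 33 genes, with HOXA10 at 0.56 ± 0.19, which has HOXA10-AS on its opposite strand. EFNB1, a membrane-bound ephrin ligand, stood at 4.45, 3.86, 4.01 and 3.55 against 3.29, 3.18 and 3.42 (0.67 ± 0.20), in a list of ephrins and their receptors with a median of 0.28 over 18 genes. The 5 measured cancer-testis genes, normally limited to germ cells, had a median of 0.68. MAGEA3 stood at 3.22, 2.47, 2.52 and 2.19 against 1.69, 1.93 and 1.87 (0.77 ± 0.24), MAGEA12 had 0.84 ± 0.31 and MAGEB2 0.58 ± 0.21, and all 3 had separate groups. MAGEA3 and MAGEA12 have near-identical relatives on the X chromosome that can share reads. The 6 measured Src-family kinases and adaptors had a median of 0.19 with none at an unadjusted p under 0.05. Of the other lists, p53, Wnt and YAP targets, immediate early genes and actin cytoskeleton genes had medians of 0.15 to 0.24, cadherins and integrins 0.11, extracellular matrix 0.14, cytosolic heat shock proteins 0.13, and neuronal genes and channels 0.05 and 0.004.

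Ribosomal proteins went both ways. The 77 measured had a median of 0.12, with 11 higher and 2 lower at an unadjusted p under 0.05. RPL29, of the large subunit, stood at 9.18, 9.01, 8.95 and 8.32 in Lyn11 and 8.18, 8.23 and 8.25 in Lck (0.64 ± 0.21). RPL11, also of the large subunit, stood at 6.48, 5.94, 5.91 and 6.84 against 7.16, 6.72 and 6.85 (-0.62 ± 0.24). In RPL29 the groups were apart, and in RPL11 Lyn11 control 4 lay within the Lck values. Zinc finger genes of chromosome 19, a family of transcription factors, had a median of -0.10 over 30 genes, 24 of them lower in Lyn11. ZNF233 stood at 0.22, 0.89, 0.69 and 0.73 against 1.07, 1.14 and 1.16 (-0.49 ± 0.21), without overlap, and lies opposite ZNF235.

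Markers of the labelled line were present. Of 12 markers of the HEK293 lineage, 10 were measured, with VIM, an intermediate filament, highest at 6.16 and CDH2, a neural cadherin, at 4.20, 4.09, 4.24 and 4.17 in Lyn11 and 3.86, 3.88 and 3.91 in Lck (0.29 ± 0.10). VIM had 0.30 ± 0.10 and NEFM, a neurofilament, -0.42 ± 0.15. Of 20 blood cell markers 2 were measured, of 16 markers of carcinoma lines 1, with CDH1 highest at 0.88, and of 14 fibroblast markers 3, with COL1A1 highest at 2.94. COL1A1 (0.15 ± 0.20) and CDH1 (0.07 ± 0.22) overlapped between the lines, and TWIST1, a transcription factor of mesenchyme, had 0.40 ± 0.14.

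The labeled libraries of the same lines, 4 Lyn11 and 3 Lck, give the line difference in separate samples, though they were also labeled. There too 0 of 19966 genes (0%) had an adjusted p under 0.05, the lowest being 0.0943, with 3938 at an unadjusted p under 0.05 and 1 called by limma voom on the recovered reads. Groups were separate for 3022 genes with Lyn11 above Lck (15.1%) and 1268 with Lyn11 below (6.35%). The sign was the same in unlabeled and labeled libraries for 15183 genes (76%), and for 2055 of the 2266 genes (90.7%) whose control groups did not overlap. Of those, 767 were also separate in the same direction in the labeled libraries, 33.8% of the control list and 17.9% of the labeled list, and 15 in the opposite direction. A test of whether the line difference changed with labeling gave 0 genes, with a lowest adjusted p of 0.999 and 369 genes (1.85%) at an unadjusted p under 0.05. That does not show that the differences were equal.

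All 26 mitochondrial genes were again lower in the labeled Lyn11 libraries, with a median of -1.18, and 10 had separate groups. RN7SL2 stood at -0.84 and NEAT1 at -1.51 in the labeled libraries, both with separate groups. The 12 coding genes with the largest positive differences all kept their sign, 8 with separate groups, and values ran from 0.17 for CXCR4 and 0.25 for HLA-C to 1.15 for SAC3D1 and 1.58 for PANK4. PANK4 rested on labeled Lck replicate 3, at -2.28 against 1.52 and 1.51 in the other labeled Lck libraries, and its difference was 0.31 without it, with overlapping groups. The 12 coding genes with lower values also kept their sign, 5 with separate groups, though DCDC2B at -0.05 turned to 0.08, 0.01 and 0.02 without labeled Lyn11 replicate 3 and labeled Lck replicates 1 and 2. Of the 12 low small noncoding genes 10 kept their sign and 0 had separate groups, RNU6-430P standing at 0.33. IFITM2, an interferon-induced membrane protein, had 0.61 in the controls and -0.42 in the labeled libraries, and DHFRP1 1.01 and -0.77.

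**Figure D4:**
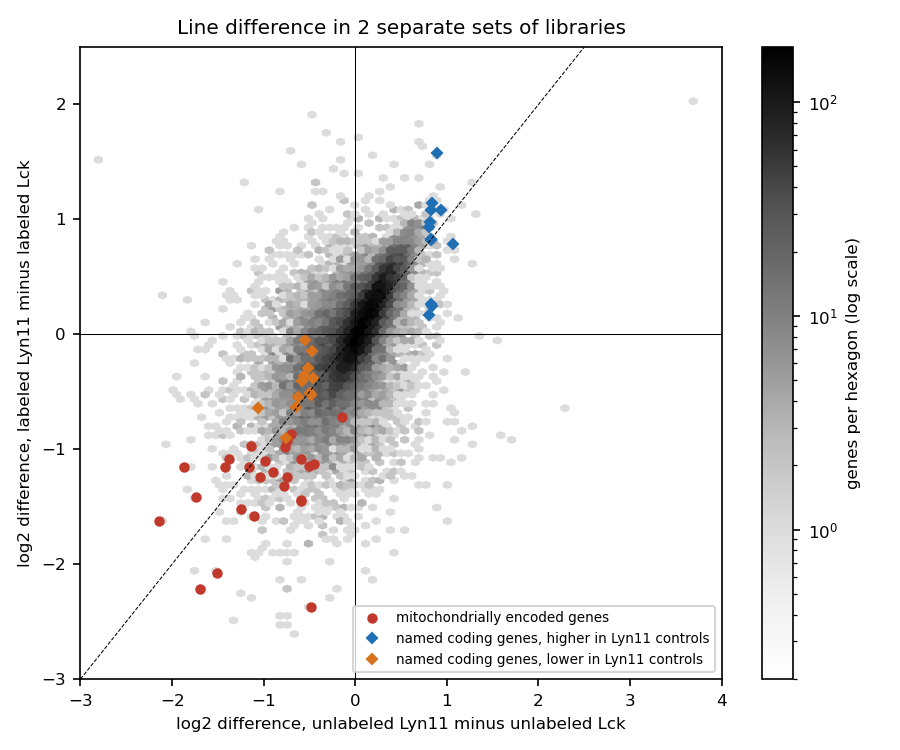
Each gene's difference between the lines in the unlabeled libraries (horizontal, log2 FPKM) and in the labeled libraries (vertical, log2 FPKM), with genes counted per hexagon on a log scale of grey and the line of equal values dashed. Red points are the 26 mitochondrial genes, all negative on both axes, and diamonds are the 12 nuclear protein-coding genes with the largest differences in each direction, which have the same sign on both axes.

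Averaging the difference over all 14 libraries of the lines, a comparison added after the data were seen, gave 1503 genes at an adjusted p under 0.05 with limma, 1151 higher in Lyn11 (5.76%) and 352 lower (1.76%). Among them were 17 of 26 mitochondrial genes, all lower, RN7SL2 (-0.94, adjusted p = 0.0399) and NEAT1 (-1.24, adjusted p = 0.0281). Also called were 8 of the 12 coding genes with the largest positive differences, including PPP1R35 (0.93, adjusted p = 0.0281). Those 12 genes were picked by their control values, which also enter the average, so their calls are not separate support. The number called rested on single libraries. It was 0 without Lyn11 control 3, without Lck control 1 or 3, and without labeled Lck replicate 2 or 3, then 2 without Lyn11 control 2 and 1 without Lck control 2. It was 3656 without Lyn11 control 4, and 1001, 730 and 662 without labeled Lyn11 replicates 1, 2 and 4.

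GC content moved with the line difference and with single libraries. Nuclear protein-coding genes were split into 5 equal groups by the GC content of their transcripts, and the median difference was -0.004 in the lowest group, then 0.07, 0.14 and 0.19, and 0.22 in the highest. In the labeled libraries the same groups ran from -0.13 to 0.36. Within the controls, the highest group stood at 0.49, 0.17, 0.04 and -0.31 in Lyn11 controls 1 to 4 and -0.27, 0.02 and -0.15 in the Lck controls, as median deviations from each gene's mean. Lyn11 controls 1 and 4 were thus at opposite ends, and the lines overlapped. The gap between the highest and lowest group was 0.23, and it was 0.02 without Lyn11 control 1, 0.06 without Lck control 1, 0.44 without Lyn11 control 4 and 0.37 without Lck control 2. Short transcripts also had larger positive differences, 0.20 in the shortest group and 0.03 in the longest. With the correction for GC content and length the mitochondrial median was -0.63, and the number of genes at an unadjusted p under 0.05 rose from 1909 to 2936, still with 0 at an adjusted p under 0.05.

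**Figure D5:**
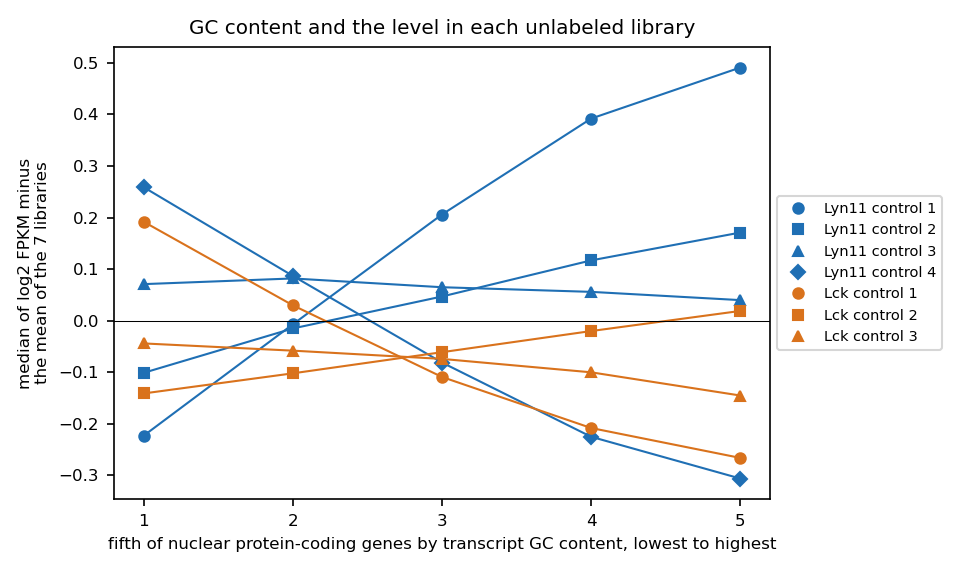
Nuclear protein-coding genes in 5 groups of rising GC content, with the median over each group of a library's log2 FPKM less the gene's mean over the 7 libraries, Lyn11 in blue and Lck in orange. In the highest group Lyn11 control 1 stands at 0.49 and Lyn11 control 4 at -0.31, with the Lck libraries between them.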

How the data were processed

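Log2 FPKM values deposited by the authors for 25745 Ensembl genes in 26 libraries were used. The submitters' processing notes name HISAT2 2.1.0, the build hg38 and edgeR (no version). The counter, annotation and strandedness were not given in the sources used here. Identifiers were matched to GENCODE 29 (24065 with version, 1589 without, 91 unmatched). The low values carry a prior count of about 1.00 read, so reads could be recovered, with 99.977% of values in the 3956 genes that have a shared floor falling within 0.05 of a whole number, giving 19.82 to 34.82 M reads in the 7 control libraries. Shares rest on these reads. Their precision covers counting error only.

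Libraries were grouped by title. The test was limma's (version 3.58.1, under R 4.3.3) with an intensity trend, two-sided, with Benjamini-Hochberg adjustment over 19966 genes and calls at an adjusted p under 0.05. No pseudocount was added to the authors' own, which shrinks differences between low values. Replicates gave a chi-square of 7.24 to 88.3 per gene over the library pairs, far above sampling noise, so no library was counted as a duplicate. P-values measure the spread between these libraries. The fit was tested on simulated data. Members and gene lists were chosen with earlier results of these data known. No gene met the rule for named genes, an adjusted p under 0.05 with separate groups and a mean log2 of at least 1. LYN was named as the source of the Lyn11 sequence, and the others were chosen after values were seen: up to 12 per direction, coding and noncoding, at an unadjusted p under 0.05, the mitochondrial genes, the 10 noncoding genes with the most reads, and list members. Alternatives were other filters, normalizations, pseudocounts, sample sets and weights, limma voom on recovered reads, a replicate block, leaving out libraries, and a GC and length correction. RefSeq promoters and proteins were not used here.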

Additional observations from a re-analysis of the deposited data

Results flagged for a closer look

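In 9 of 95 results tested, 1 library stood apart from the other Lyn11 controls by Dixon's test at the 95% level, which chance does in about 1 of 20 groups. MT-ND3 stood at 6.90 log2 FPKM in Lyn11 control 4 (median of the others 5.82), MT-ATP8 at 6.07 in control 4 (6.45), MT-ND4L at 7.28 in control 1 (7.98) and MT-TR at 5.95 in control 2 (5.46). RPS2P5 stood at 9.87 in control 1 (8.66), GAS5 at 5.86 in control 1 (6.31) and RNY3P13 at -0.98 in control 1 (1.96). SGK494 stood at 1.41 in control 2 (1.03) and SPDYE5 at 1.22 in control 3 (1.47).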

How the results depend on the processing

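The comparison of unlabeled lines gave 0 genes at an adjusted p under 0.05 under every alternative run, as did the test of a changed line difference, and the labeled lines gave 0 except 1 gene with limma voom on recovered reads. The averaged difference, 1503 genes, moved to 2446 with median centring, 912 with quantile normalization, 2842 with group weights, 2275 with a GC and length correction, and 0 to 3656 without single libraries. The coding median of 0.11 was 0.03 with that correction and 0.09 to 0.14 without single libraries, the mitochondrial median -1.20 to -0.70. The GC gap of 0.23 was 0.02 to 0.44 without single libraries and turned to -0.032 with the correction, which removes such gaps by construction. Without single libraries GAS5 ran from -0.131 to 0.054 and TUG1 from -0.051 to 0.156, and TUG1 was -0.153 with quantile normalization. The causes were not tested. Precision was limited by depth for 10 of the 12 lowest small noncoding genes, which had 0 to 55 reads per library. Genes at an unadjusted p under 0.05, 1909 in the controls, were 2936 with the GC and length correction and 3255 with the replicate block. The block also leaves out Lyn11 control 4, and leaving out that library alone gave 4269.

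Same-numbered libraries showed no steady pairing, and so few correlations cannot decide whether they were paired. Deviations of same-numbered libraries correlated at -0.23, 0.22 and -0.02 between the unlabeled lines, -0.15, 0.07 and 0.37 between the labeled lines, 0.09, 0.21, 0.16 and -0.32 between unlabeled and labeled Lyn11, and -0.28, 0.09 and -0.07 between unlabeled and labeled Lck. With the replicate block on replicates 1 to 3, 0 genes were called in the controls, the averaged difference gave 2361, the mitochondrial median was -0.99, the coding median 0.14, the GC gap 0.44 and TUG1 -0.051.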

Other observations

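The largest differences of all genes tested were in genes with low and very uneven values, below the mean level set for named genes. RNH1, the ribonuclease inhibitor (chromosome 11, 494512 to 507300), had 2298, 382, 691 and 92 reads in the Lyn11 controls and 20, 56 and 26 in the Lck controls. Its log2 FPKM of 3.31, 1.16, 1.91 and -0.90 lay above -2.87, -1.58 and -2.53 in every library, with a difference of 3.70 ± 0.87 (limma adjusted p = 0.511) and 2.04 in the labeled libraries. SMIM11A had 6, 8, 13 and 160 reads in Lyn11 and 177, 203 and 44 in Lck, a difference of -2.79 ± 1.12 that was 1.51 in the labeled libraries. NSF, an ATPase of vesicle fusion, had 203, 226, 324 and 9 reads against 80, 6 and 11, a difference of 2.305 ± 1.294 that was -0.638 in the labeled libraries. SMIM11A and NSF each overlapped between the lines, and both have near-identical copies in the human genome that can split reads. These genes were chosen after their values were seen.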
